A study of Mus musculus with 11 samples.

Results

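The 10 genes described here encode antagonists and feedback regulators of Wnt signalling: Dkk1, Dkk2, Sfrp1, Sfrp2, Wif1, Apcdd1, Axin2, Lef1, Nkd1 and Znrf3. They were taken as every probe set of the array whose only gene symbol in the array annotation was that of one of these genes, which gave 26 of the 45101 probe sets and 10 of the 18194 genes. RNA was measured on 11 Affymetrix arrays in tissue dissected from the mandibular arch of ICR mouse embryos, with no genetic change or treatment in any group. At E10.5 the arch was cut into a distal piece, called medial, and a lateral piece with most of what was left, and the series was made to compare their expression. Both tissues were each measured on 1 array at E9.7 and 3 arrays at E10.5, and medial tissue on 2 arrays at E11.5 and 1 array at E14.5. The E14.5 array carries the label tongue, anterior part, so that stage and dissected tissue differ together there and cannot be told apart. RNA came from pools of 40 embryos per time point, no label says that the replicates of a group came from separate pools, and p-values here reflect only differences among arrays that may be technical replicates.

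Wnt ligands bind Frizzled receptors and LRP co-receptors, which stops the destruction of beta-catenin so that it can enter the nucleus and act with TCF/LEF proteins on target genes. Secreted and membrane-bound antagonists block the ligands or receptors outside the cell, and several target genes encode inhibitors that dampen the signal inside the cell. In the mandibular arch, Wnt ligands made by the epithelium signal to the neural crest mesenchyme below it, and the pathway takes part in the growth and distal-to-proximal patterning of the lower jaw.

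The members fall into 3 roles. Dkk1 and Dkk2 encode secreted proteins that bind the LRP co-receptors, Sfrp1 and Sfrp2 encode secreted Frizzled-like proteins that bind Wnts, Wif1 encodes a secreted Wnt-binding protein, and Apcdd1 encodes a membrane-bound inhibitor. Axin2 encodes a scaffold of the complex that destroys beta-catenin and is a widely used readout of the pathway, and Lef1 encodes a DNA-binding partner of beta-catenin. Nkd1 encodes a protein that binds Dishevelled inside the cell, and Znrf3 encodes a ubiquitin ligase that removes Frizzled receptors from the cell surface.

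Because Lef1 belongs to the family of proteins that read the Wnt signal on DNA, the promoters of the members were searched for the core of the TCF/LEF motif (CTTTG and then 2 bases that are each A or T, 7 bases in all, on both strands). The windows ran from 250 bases before to 50 bases after an annotated start site, from RefSeq on assembly GRCm38.p6, whose table matched 7 members. Of these, 2 (Dkk1 and Lef1) had at least 1 match in any of their windows, and Lef1 had it in only 1 of several. Among all 32851 windows of this length, 16.9% had at least 1. That share is per window, so it is not like the count of genes. The 250 bases before the start are shown for both, with the match in capitals, and for Axin2, the pathway readout, whose window had none. The start site of that Axin2 window lies inside the gene, which begins at chr11:108917828. Each sequence is written 5′ to 3′ on the strand of the gene.
Dkk1, chr19:30549497-30549746, minus strand: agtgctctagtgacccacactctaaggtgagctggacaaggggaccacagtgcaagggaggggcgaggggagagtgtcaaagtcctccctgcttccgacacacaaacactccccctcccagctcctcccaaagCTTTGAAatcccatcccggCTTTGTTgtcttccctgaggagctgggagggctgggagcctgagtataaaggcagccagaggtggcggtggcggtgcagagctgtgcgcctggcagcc
Lef1, chr3:131156044-131156293, plus strand, a start site inside the gene: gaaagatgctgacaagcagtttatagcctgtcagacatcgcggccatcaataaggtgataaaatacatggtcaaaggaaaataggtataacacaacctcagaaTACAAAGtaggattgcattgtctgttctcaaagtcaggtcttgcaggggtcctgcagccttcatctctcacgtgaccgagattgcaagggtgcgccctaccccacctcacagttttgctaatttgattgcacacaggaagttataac
Axin2, chr11:108920099-108920348, plus strand: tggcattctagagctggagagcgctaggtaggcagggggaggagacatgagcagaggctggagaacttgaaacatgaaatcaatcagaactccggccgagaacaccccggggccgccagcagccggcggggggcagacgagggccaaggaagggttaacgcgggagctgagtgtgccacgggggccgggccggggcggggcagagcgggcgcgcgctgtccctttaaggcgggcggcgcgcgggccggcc
Dkk1 had its matches 117 and 98 bases before the start, in the forward orientation, and 1.94% of all windows had at least 2. The match of Lef1 lay 147 bases before an internal start site and reads CTTTGTA on the opposite strand, and the other 3 Lef1 windows had none. A match is a string of letters and not a measured site, and a window without one says nothing about binding.

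Values below are log2 signals after quantile normalization across the 11 arrays, and each gene is given by its brightest probe set unless another is named. Before that step, 9 arrays had medians of 5.20 to 5.73, while the first replicates of medial E10.5 and medial E11.5 had 2.37 and 2.47 and are called arrays of low signal here. Arrays of 1 group correlated at 0.975 to 0.995. Genes were tested with limma where 2 or more of the 8 arrays with replicates reached 4.86, the 50th percentile over all probe sets and arrays, and were called at an adjusted p under 0.05. That filter left 11968 genes, with all 10 members, and 25 of their 26 probe sets; the exception, an Apcdd1 probe set (1443639_at), lay between 2.80 and 4.07. By the signals of 45 spike-in control probe sets, hierarchical clustering put the arrays into 4 control-probe groups, and the labels name no batch. In these pooled pieces, fewer cells of a type and less RNA per cell cannot be told apart. All 7 mesenchyme markers, among them Prrx1 and Twist1, reached the filter level on every array.

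**Figure D1:**
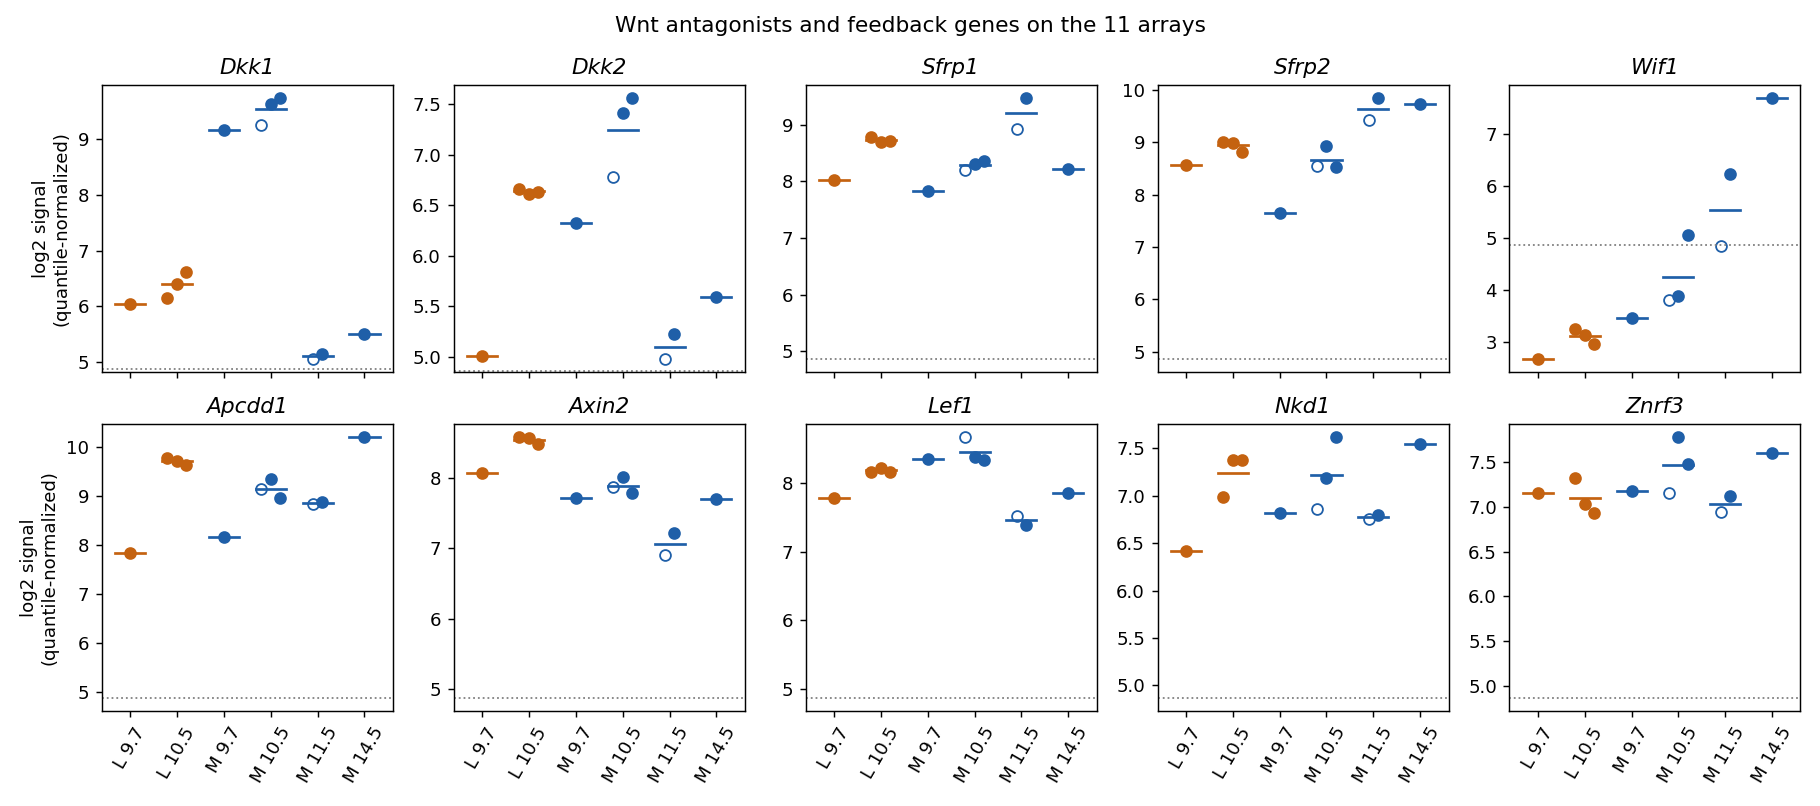
Log2 signal (vertical axis) of the 10 members on each of the 11 arrays, by tissue (M medial, L lateral) and embryonic day, with the group mean as a bar, open circles for the arrays of low signal and a dotted line at the filter level of 4.86. Medial Dkk1 lies at 9.16 to 9.74 at E9.7 and E10.5 and at 5.05 and 5.14 at E11.5, while the group means of Znrf3 span only 7.03 to 7.60.

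At E10.5, Dkk1 was far higher in medial than in lateral tissue, while Axin2 and Apcdd1 were lower in medial tissue. These 3 members passed the test, 1 higher and 2 lower in medial tissue, which is to be read against 4.63% of all tested genes in either direction (2.82% higher and 1.8% lower). In 7 members no medial array overlapped with a lateral one, 4 higher and 3 lower, beside 25% of all tested genes (12.1% and 12.9%). The median absolute log2 difference was 0.50 over the members and 0.15 over all tested genes.

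Among the secreted antagonists, Dkk1 was at 9.26, 9.63 and 9.74 on the medial arrays and at 6.15, 6.40 and 6.62 on the lateral arrays. The lowest medial array thus lay far above the highest lateral array, and the fold difference of the means was 8.88 (95% interval of the log2 difference 2.78 to 3.52). A separate Dkk1 probe set (1458232_at) differed by 3.43, with adjusted p = 6.60e-05 in the limma fit of all 24339 tested probe sets, of which 2.96% passed. Its lateral mean of 3.55 lay under the filter level, so the size of that difference is uncertain. The log2 difference of Dkk1 was 3.47 between arrays of control-probe group 1 and 3.23 within group 3. By size, Dkk1 ranked 13 among all tested genes.

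Its relative Dkk2 was at 6.78, 7.41 and 7.56 on the medial arrays and at 6.61, 6.64 and 6.67 on the lateral arrays. The arrays did not overlap, but the lowest medial array, which is one of low signal, lay close to the lateral ones. The log2 difference of 0.61 ± 0.19 (SE, n = 3 per side) did not pass in limma (adjusted p = 0.139). Without medial replicate 1 it was 0.84 with adjusted p = 0.00633, and adjusted p ran from 0.00145 to 0.705 over 20 alternatives. With the values as deposited its sign turned, to -0.48.

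Sfrp1, which binds Wnts, was at 8.20, 8.32 and 8.36 in medial and at 8.69, 8.71 and 8.79 in lateral tissue at E10.5. All lateral arrays were the higher ones, yet the log2 difference of -0.44 ± 0.15 did not pass in limma (adjusted p = 0.167). It passed with array weights (adjusted p = 0.0137) and with only both groups in the fit (0.0453), in a range from 0.0137 to 0.901 over 20 alternatives. Its 5 probe sets all had lower medial means, by -0.43 to -0.53, with adjusted p from 0.0554 to 0.629 in the probe-set fit. The paralog Sfrp2 overlapped between the tissues, and its difference had a 95% interval of -0.62 to 0.08.

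Wif1 was dim at E10.5, with 3.82, 3.88 and 5.05 in medial and 2.97, 3.14 and 3.27 in lateral tissue, and only medial replicate 3 reached the filter level. Its log2 difference of 1.12 ± 0.40 did not pass (limma adjusted p = 0.193), and it was 0.62 within control-probe group 1 and 1.99 within group 3. Wif1 passed after median centring of the arrays (adjusted p = 0.00259), with array weights (0.0233) and with control-probe group as a fixed effect (0.0214), in a range from 0.00259 to 0.847 over 18 alternatives.

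The membrane-bound inhibitor Apcdd1 was at 8.96, 9.15 and 9.36 on the medial arrays and at 9.64, 9.72 and 9.79 on the lateral arrays. Every lateral array was above every medial one, and the log2 difference was -0.56 ± 0.12 (SE, n = 3 per side; limma adjusted p = 0.0368). All 5 tested Apcdd1 probe sets had lower medial means, by -0.40 to -0.89, but none passed in the probe-set fit (adjusted p from 0.0605 to 0.325). Its call was lost in 12 of 20 alternatives (adjusted p from 0.00688 to 0.878), among them those without medial replicate 1 (0.0785) or 3 (0.0932) and without lateral replicate 1 (0.128), 2 (0.15) or 3 (0.114). Within control-probe groups 1 and 3 the difference of Apcdd1 was -0.43 and -0.72.

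Among the genes that act inside the cell, Axin2 was at 7.78, 7.87 and 8.02 on the medial arrays and at 8.49, 8.57 and 8.58 on the lateral arrays. The tissues did not overlap, and the spread within each was small beside the log2 difference of -0.65 ± 0.12 (SE, n = 3 per side; limma adjusted p = 0.0154), a fold of 1.57. The dimmer Axin2 probe set (1421341_at, 4.65 to 5.53 on these arrays) differed by -0.02 and did not pass, and with the mean of both probe sets the gene was not called (-0.34, adjusted p = 0.324). The call was also lost without medial replicate 3 (adjusted p = 0.0557), without lateral replicate 1 (0.0653), 2 (0.0845) or 3 (0.0627) and after median centring of the arrays (0.661), in a range from 0.00181 to 0.661 over 20 alternatives. Within control-probe groups 1 and 3 the difference of Axin2 was -0.56 and -0.74.

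Lef1 was at 8.33, 8.38 and 8.67 in medial and at 8.16, 8.17 and 8.22 in lateral tissue, without overlap. Its log2 difference of 0.27 ± 0.12 did not pass in limma (adjusted p = 0.305), and the values as deposited gave -0.68. At its dimmer probe set (1421299_a_at) the tissues overlapped, with 5.77 to 7.02 in medial and 5.78 to 6.19 in lateral tissue. Nkd1 and Znrf3 overlapped between the tissues, with 95% intervals of -0.47 to 0.42 and of -0.02 to 0.77. The mean difference of Nkd1, at -0.02, changed sign with the scaling, to 0.06 after median centring of the arrays, and that of Znrf3, 0.38 ± 0.18 (limma adjusted p = 0.340), was -0.68 with the values as deposited. With array weights Znrf3 passed (0.64, adjusted p = 0.00752), in a range from 0.00752 to 0.809 over 20 alternatives.

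**Figure D2:**
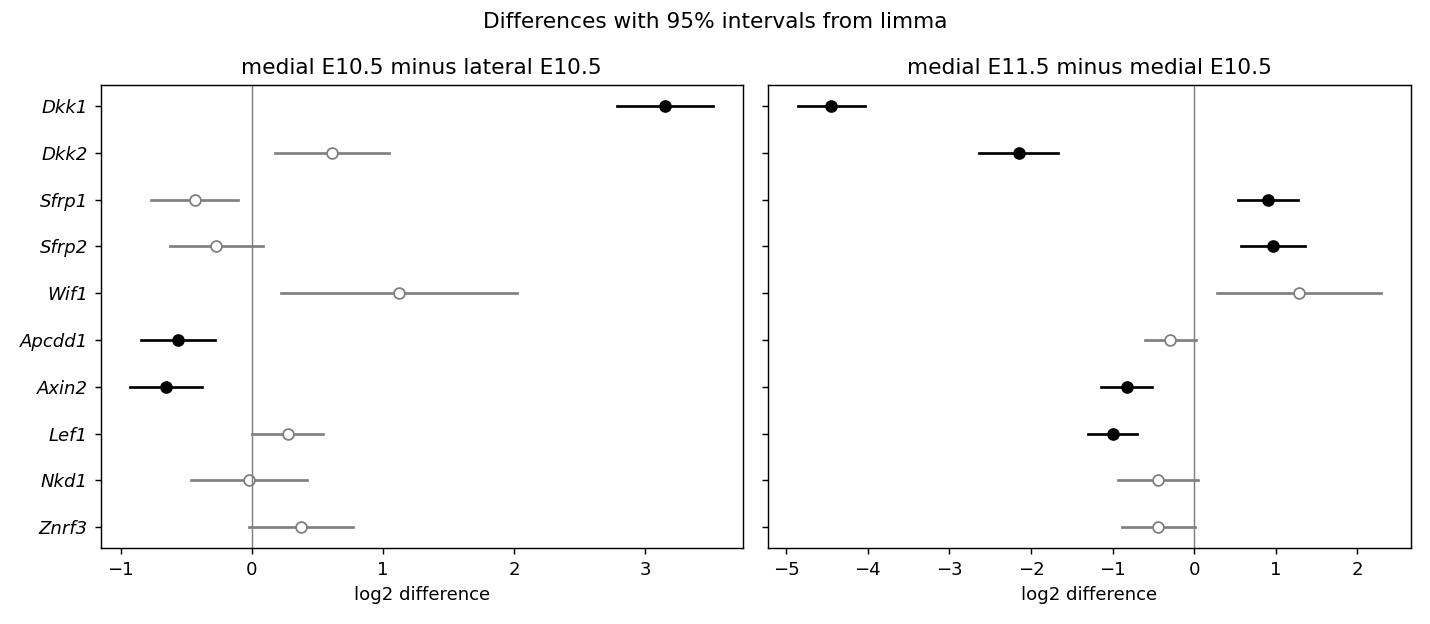
Log2 difference of each member (horizontal axis), for medial minus lateral tissue of E10.5 and for E11.5 minus E10.5 in medial tissue, with 95% limma intervals and filled symbols for calls at an adjusted p under 0.05. Dkk1 stands far from 0 in opposite directions in the 2 comparisons, and Axin2 lies below 0 in both.

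Markers of cell types differed between the same E10.5 pieces. Of 7 mesenchyme markers, Msx1 was higher (0.73, limma adjusted p = 0.0426) and Foxc1 lower (-1.73, adjusted p = 0.00782) in medial tissue. Their summed log2 level was 12.79 to 12.96 on the medial and 12.77 to 12.86 on the lateral arrays. Of 12 epithelial markers, 8 had a higher and none a lower medial level by the limma test (9 at an unadjusted p under 0.05), with a median difference of 0.78. The log2 of their summed signal was 11.71 to 11.85 on the medial and 10.90 to 10.99 on the lateral arrays, and all 12 reached the filter level in every group. Of 10 endothelial markers, 3 were higher and none lower, with a summed level of 10.68 to 10.72 against 10.21 to 10.28. Of 4 tested endoderm markers, Foxa1 and Foxa2 were higher, with a summed level of 8.08 to 8.28 against 7.47 to 7.62. Of 4 tested cartilage, bone and tendon markers, 3 were lower in medial tissue (Sox9 by -1.98, Col2a1 by -0.98 and Scx by -0.82), with a summed level of 9.72 to 9.98 against 10.83 to 10.99. Of 11 tested muscle markers, 2 were lower, with a summed level of 8.23 to 8.44 against 8.68 to 9.07. Of 4 tested neuronal markers, only Dcx was higher and none was lower, with a median difference of -0.05. Of 2 tested glial markers, Fabp7 was lower. Dcx and Fabp7 each had their lower mean under the filter level. The part of these cell types in the differences of Dkk1, Apcdd1 and Axin2 was not tested.

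Between E10.5 and E11.5, medial tissue lost most of its Dkk1 and Dkk2 signal, Axin2 and Lef1 fell, and Sfrp1 and Sfrp2 rose. These 6 members passed the limma test, 2 higher and 4 lower at E11.5, beside 6.92% of all tested genes in either direction (4.32% higher and 2.6% lower). In 9 members the arrays of the stages did not overlap, 2 higher and 7 lower, beside 28.4% of all tested genes (14.8% and 13.6%). The median log2 difference was -0.44 over the members and 0.00 over all tested genes. The medial E10.5 arrays are shared with the comparison of the tissues at E10.5.

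Dkk1 was at 5.05 and 5.14 on the E11.5 arrays, against 9.26 to 9.74 at E10.5. Both E11.5 arrays lay close to the filter level of 4.86 and below every lateral array of E9.7 and E10.5. Dkk1 differed by -4.45 ± 0.18 (SE, n = 2 against 3, limma adjusted p = 5.85e-06), a fold of 21.8. Its other probe set differed by -4.05, with an E11.5 mean of 2.94 that lay under the filter level. At the brightest probe set the log2 difference was -4.48 within control-probe group 1 and -4.21 within group 2. The call of Dkk1 was lost only with the values as deposited (limma adjusted p = 0.520), in a range from 5.82e-16 to 0.520 over 19 alternatives.

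Dkk2 was at 4.98 and 5.22 at E11.5, against 6.78, 7.41 and 7.56 at E10.5, so the E11.5 arrays lay low and apart from the others. It differed by -2.15 ± 0.21 (limma adjusted p = 0.000355), a fold of 4.44. Within control-probe groups 1 and 2 the difference of Dkk2 was -2.19 and -1.80.

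Sfrp1 was at 8.93 and 9.47 at E11.5 and at 8.20, 8.32 and 8.36 at E10.5, and Sfrp2 was at 9.42 and 9.85 against 8.53, 8.55 and 8.93. In both genes each E11.5 array was above each E10.5 array. Sfrp1 rose by 0.91 ± 0.16 (limma adjusted p = 0.0102), a fold of 1.87, and 3 of its 5 probe sets passed in the probe-set fit, as 4.31% of all probe sets did; the other two differed by 1.19 (adjusted p = 0.141) and 0.58 (adjusted p = 0.0713). Sfrp2 rose by 0.97 ± 0.17 (limma adjusted p = 0.0106), a fold of 1.95, and lost its call without medial E11.5 replicate 2 (0.76, adjusted p = 0.0770). After median centring neither gene passed (adjusted p = 0.135 for Sfrp1 and 0.124 for Sfrp2). Sfrp1 also missed the threshold with only both groups in the fit (adjusted p = 0.0533) and Sfrp2 with array weights (0.0669), in ranges from 0.00142 to 0.916 and from 0.00127 to 0.900 over 19 alternatives each.

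Wif1 was at 4.84 and 6.24 at E11.5 and overlapped with its E10.5 arrays, whose highest was 5.05. The log2 difference of 1.29 ± 0.44 did not pass in limma (adjusted p = 0.149), and it passed with centring (adjusted p = 0.0227) and with control-probe group as a fixed effect (0.0186), in a range from 0.00651 to 0.882 over 16 alternatives. Apcdd1 was at 8.85 and 8.88 at E11.5, below all 3 arrays of E10.5, and its difference of -0.29 ± 0.14 did not pass (limma adjusted p = 0.318). The stages overlapped at the Apcdd1 probe sets 1437604_x_at (-0.28) and 1418383_at (-0.46), and not at its other tested ones.

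Axin2 was at 6.91 and 7.22 at E11.5, below the 7.78 to 8.02 of medial E10.5, and the stages did not overlap. It fell by 0.83 ± 0.14 on the log2 scale (limma adjusted p = 0.00658), a fold of 1.77, and its dimmer probe set differed by -0.86 (adjusted p = 0.149 in the probe-set fit). Without the arrays of low signal it differed by -0.67 and was not called (adjusted p = 0.0542), as with centring (adjusted p = 0.0762), in a range from 0.00126 to 0.882 over 19 alternatives. Lef1 was at 7.39 and 7.52 at E11.5, against 8.33 to 8.67, with the stages well apart. Lef1 differed by -1.0 ± 0.13 (limma adjusted p = 0.00192), a fold of 2.0. Its dimmer probe set differed by -1.11 without overlap and did not pass (limma adjusted p = 0.117 in the probe-set fit). Neither Nkd1 (-0.44 ± 0.22, limma adjusted p = 0.341) nor Znrf3 (-0.44 ± 0.20, limma adjusted p = 0.288) passed. At the brightest probe set of both genes, every E11.5 array was below every E10.5 array. The stages overlapped at a dimmer probe set of each, Nkd1 1440446_at (-0.18) and Znrf3 1437646_at (-0.39), and not at the other Nkd1 probe sets.

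**Figure D3:**
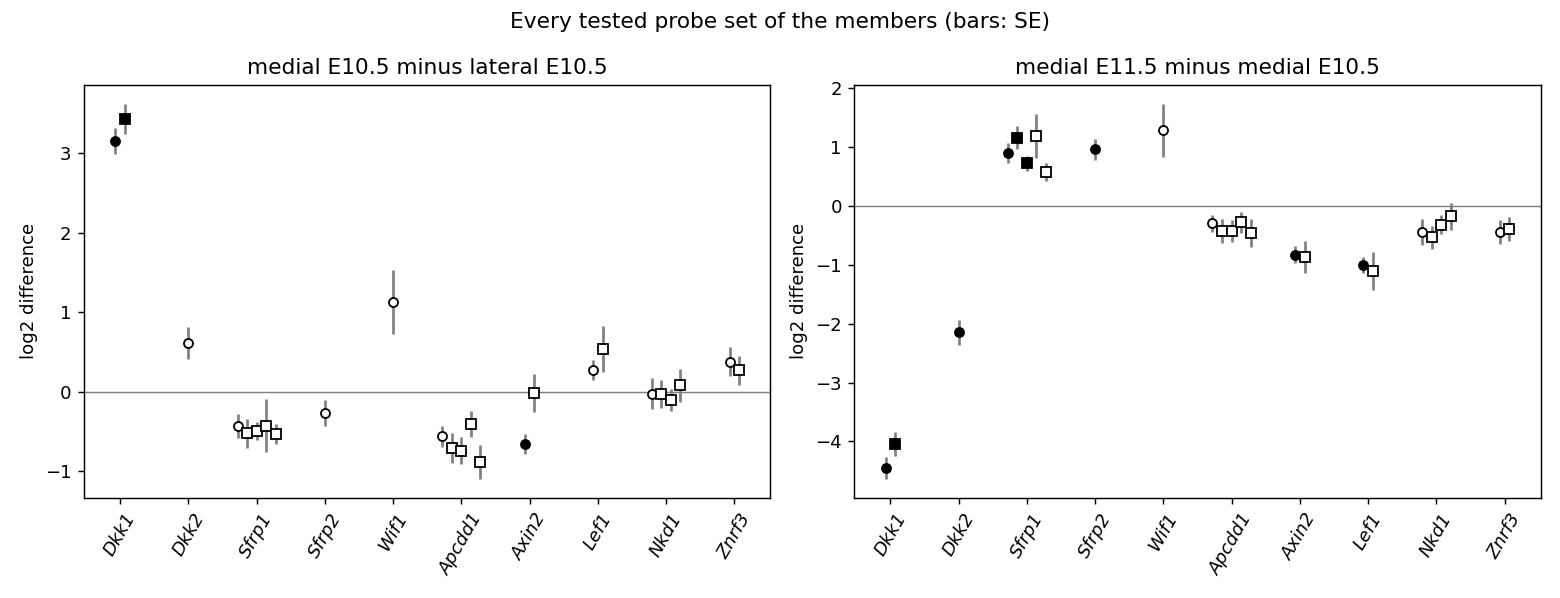
Log2 difference (vertical axis) of every tested probe set of the members in the 2 tested comparisons, with bars for the SE. Circles mark the probe set that stands for its gene, squares the others, and filled symbols calls adjusted over 24339 probe sets. Both Dkk1 probe sets lie together at 3.15 and 3.43 at E10.5, while the Axin2 probe sets lie at -0.65 and -0.02.

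The cell type markers of medial tissue also differed between these stages. Of 11 tested muscle markers, 9 were higher at E11.5 and none was lower (limma, 10 at an unadjusted p under 0.05), with a median difference of 3.73 and a summed log2 level of 12.33 to 12.69 against 8.23 to 8.44. Of 12 epithelial markers, 10 were lower and 1 higher, and their summed level was 10.88 to 10.99 against 11.71 to 11.85. Of 7 mesenchyme markers, 4 were lower and 1 higher, with a summed level of 11.85 to 12.10 against 12.79 to 12.96. Of 5 tested macrophage markers, 3 were higher (C1qa, C1qb and Csf1r), with a summed level of 8.71 to 8.78 against 7.82 to 8.14. Of 4 tested neuronal markers, Dcx and Nefm were higher (8.89 to 9.13 against 7.72 to 7.87), and of 4 endoderm markers Foxa1 and Foxa2 were higher and Sox17 lower (8.96 to 9.03 against 8.08 to 8.28). Of 10 endothelial markers, Cldn5 and Tek were lower (10.19 to 10.26 against 10.68 to 10.72), and of 4 red cell markers Hbb-bh1 was lower. Of 4 tested cartilage, bone and tendon markers, only Scx was higher and none was lower (9.50 to 10.15 against 9.72 to 9.98). Their part in the differences of Dkk1, Dkk2, Sfrp1, Sfrp2, Axin2 and Lef1 was not tested.

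**Figure D4:**
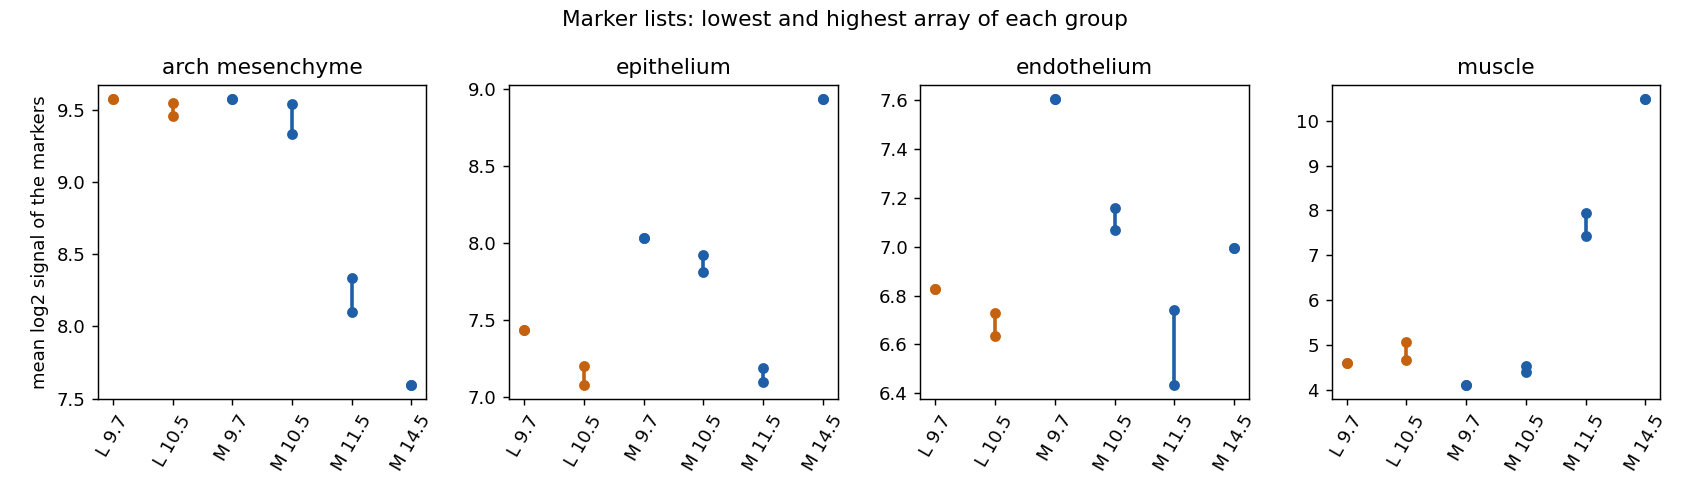
Mean log2 signal (vertical axis) of the mesenchyme, epithelium, endothelium and muscle marker lists, drawn from the lowest to the highest array of each of the 6 groups. Muscle markers lie at 4.40 to 4.53 in medial E10.5 tissue, at 7.43 to 7.94 at E11.5 and at 10.48 at E14.5.

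Comparisons with 1 array on a side were not tested, and a gene was counted where its value on that array differed by 2-fold or more from each array on the other side. At E9.7, medial Dkk1 was at 9.16 and lateral Dkk1 at 6.03, and medial Dkk2 was at 6.32 and lateral Dkk2 at 5.0. These 2 of 9 members bright enough to count were higher in medial tissue, with log2 differences of 3.13 and 1.32, beside 1.09% of 11252 genes (1.76% in either direction, 0.667% lower). The difference of Dkk1 was thus 3.13 at E9.7 and 3.15 at E10.5, while that of Dkk2 was 1.32 and 0.61. Sfrp2 differed by -0.92 (7.64 in medial against 8.57 in lateral tissue), and Axin2 was also on the lateral side, at 7.71 against 8.08. Epithelial markers stood higher in the medial E9.7 piece too, with a summed level of 12.25 against 11.44, and so did endothelial markers, with 11.15 against 10.38, all 10 of them by 0.55 to 1.05. Cartilage, bone and tendon markers had a summed level of 10.27 in medial and 10.96 in lateral tissue, but they were split. Sox9 (-1.04) and Col2a1 (-0.69) were lower in medial tissue, and Scx (0.42) and Sp7 (0.35) were higher. Their part was not tested.

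From E9.7 to E10.5, lateral tissue showed higher Dkk2 and Apcdd1. Lateral Dkk2 was at 5.0 at E9.7 and at 6.61 to 6.67 at E10.5, a log2 difference of 1.63. Lateral Apcdd1 was at 7.84 at E9.7 and at 9.64 to 9.79 at E10.5, a difference of 1.88, and it was 1.95 against the E10.5 array of the same control-probe group. These 2 members were counted as higher beside 0.958% of 11484 genes, and none was lower (1.36% in either direction, 0.401% lower). In medial tissue no member was counted, beside 1.01% of 11438 genes (0.647% higher and 0.367% lower), and the largest differences were those of Sfrp2 (1.03), Apcdd1 (0.99) and Dkk2 (0.93). Without medial replicate 1, Dkk2 was counted at 1.15. With the values as deposited, which carry the low signal of that array, the medial differences of Sfrp2, Apcdd1 and Dkk2 were -0.02, -0.08 and -0.07.

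At E14.5, the array labelled as tongue had the highest Wif1 and Apcdd1 of all 11 arrays. Wif1 was at 7.69 there, against 4.84 and 6.24 at E11.5, and no array of any other group was above 6.24. Apcdd1 was at 10.20 against 8.85 and 8.88. These 2 members were counted as higher than at E11.5, with log2 differences of 2.15 and 1.34, beside 11.1% of 12361 genes (14.8% in either direction, 3.67% lower), and that of Wif1 was 1.44 without medial E11.5 replicate 1 and 2.86 without replicate 2. Sfrp1 was at 8.22 against 8.93 and 9.47, a difference of -0.98, and it was counted as lower without medial E11.5 replicate 1 (-1.25). It was -0.58 after median centring and turned to 0.78 with the values as deposited. Dkk1 stayed dim at 5.49, and the Lef1 probe sets disagreed, since 1454734_at was above both E11.5 arrays at 7.86 and 1421299_a_at below both at 4.41. The summed level was above every other array for markers of muscle (15.22), epithelium (13.16), endoderm (9.99), neurons (9.94), macrophages (9.86) and glia (7.97). It was below every other array for markers of mesenchyme (11.58), red cells (12.47) and cartilage, bone and tendon (8.23). Of 12 muscle markers, 8 were counted as higher than at E11.5 and Tcf21 (-2.15) as lower. The part of these cell types was not tested.

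**Figure D5:**
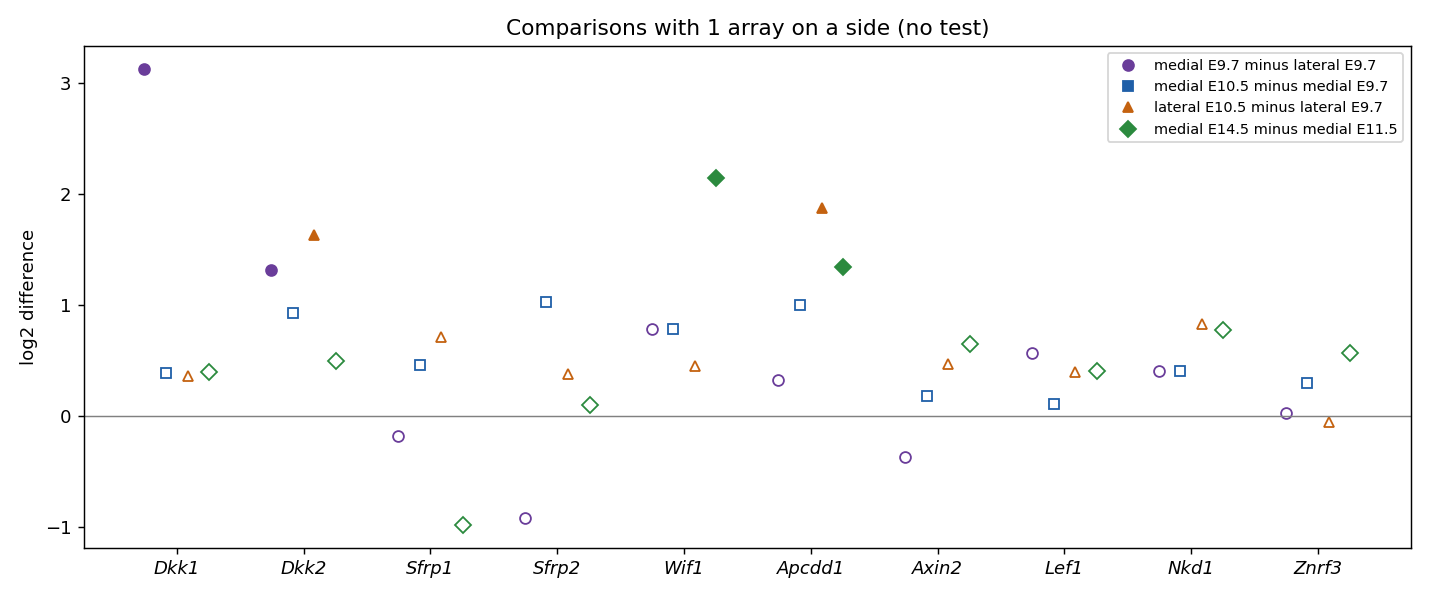
Log2 difference (vertical axis) of each member in the 4 comparisons with 1 array on a side, without error bars, with filled symbols where the single array differs by 2-fold or more from each array it is compared with. Filled points are Dkk1 and Dkk2 at E9.7, Dkk2 and Apcdd1 in lateral tissue, and Wif1 and Apcdd1 at E14.5.

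Across the 6 groups each member had its own order of levels. Dkk1 ran from medial E10.5 (9.54) through medial E9.7 (9.16), lateral E10.5 (6.39), lateral E9.7 (6.03) and medial E14.5 (5.49) to medial E11.5 (5.10), and no neighbours in that order lay within the pooled SD of 0.20. Wif1 ran from medial E14.5 (7.69) through medial E11.5 (5.54) and medial E10.5 (4.25) to medial E9.7, lateral E10.5 and lateral E9.7, and the last 3 lay within 1 pooled SD (0.49) of their neighbours. Axin2 was highest in lateral E10.5 tissue (8.55) and lateral E9.7 tissue (8.08) and lowest in medial E11.5 tissue (7.06), while medial E9.7 and E14.5 tissue were within 1 pooled SD (0.15) of each other. Apcdd1 was highest at E14.5, then in lateral and medial E10.5 tissue, and lowest at E9.7, with all neighbours more than the pooled SD of 0.15 apart. Znrf3, which had the narrowest range of group means (7.03 to 7.60), had neighbours within 1 pooled SD (0.21) everywhere except between medial E10.5 and medial E9.7.

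The rest of the pathway was described from 7 lists of 85 other Wnt genes, of which 83 had a named probe set and 67 were tested. At E10.5, 4 were higher and 2 lower in medial tissue, beside 2.82% and 1.8% of all tested genes. The median difference of the 67 was 0.03. Among the other antagonists, Sostdc1, which binds LRP co-receptors and BMPs, was higher by 0.83 ± 0.10 (limma adjusted p = 0.00200), and Notum, which encodes an enzyme that inactivates Wnts, by 1.13 ± 0.26 (adjusted p = 0.0452). The receptor gene Fzd7 was higher by 0.86 ± 0.15 (adjusted p = 0.0124), and Lgr4, a receptor for R-spondins, by 0.72 ± 0.17 (adjusted p = 0.0482). Nkd2, the paralog of Nkd1, was lower by -1.10 ± 0.19 (adjusted p = 0.0109). The R-spondin gene Rspo1 also passed (-1.08 ± 0.24, limma adjusted p = 0.0341), but its means of 3.48 in medial and 4.56 in lateral tissue both lay under the filter level, against 6.62 at E11.5, so that difference is one between dim signals.

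Only Sostdc1 among these kept its call in all 6 fits that left out 1 array, with adjusted p up to 0.0161. Nkd2 lost it without lateral replicate 3 (adjusted p = 0.0568) and Fzd7 without medial replicate 2 or lateral replicate 2 or 3 (up to 0.0728). Lgr4 lost it in every such fit except that without lateral replicate 1 (up to 0.197), Notum in every one except that without medial replicate 1 (up to 0.156), and Rspo1 without medial replicate 1 or 2 or lateral replicate 1 or 2 (up to 0.132). With the values as deposited, Sostdc1, Notum, Fzd7 and Lgr4 had differences of -0.13, -0.03, -0.11 and -0.25.

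At E11.5, 5 of the 67 were higher and 4 lower than at E10.5, beside 4.32% and 2.6% of all tested genes. Frzb, a secreted relative of Sfrp1, differed by -2.86 ± 0.17 (limma adjusted p = 2.78e-05) and Notum by -2.18 ± 0.29 (adjusted p = 0.00197). The ligand genes Wnt9b (-1.66 ± 0.16, limma adjusted p = 0.000325) and Wnt6 (-0.94 ± 0.16, adjusted p = 0.00813) were lower, and Wnt11 was higher (1.11 ± 0.20, adjusted p = 0.00954). Rspo1 was higher by 3.14 ± 0.26 (limma adjusted p = 0.000152), from a mean of 3.48 under the filter level to 6.62, so that the size of its difference is uncertain. Higher too were Rspo3 by 1.15 ± 0.28 (adjusted p = 0.0424), the receptor gene Fzd4 by 1.55 ± 0.16 (adjusted p = 0.000377) and the Wnt5a receptor gene Ror1 by 0.63 ± 0.12 (adjusted p = 0.0137). Leaving out 1 array ended the call of Wnt6 without medial E11.5 replicate 2 (adjusted p = 0.0667), of Rspo3 without medial E11.5 replicate 2 or medial E10.5 replicate 1 or 3 (up to 0.222) and of Ror1 without either E11.5 array or medial E10.5 replicate 2 (up to 0.0731). With the values as deposited Ror1 differed by -0.06. The means of Notum (4.32) and Wnt9b (4.66) at E11.5 and of Rspo3 (4.76) at E10.5 lay under the filter level. The sizes of their differences are thus uncertain too.

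None of 10 tested genes of the cytoplasmic beta-catenin pathway and none of 11 nuclear cofactor genes passed in either comparison. Of all tested genes 4.63% passed at E10.5 and 6.92% at E11.5, so that a count of 0 in lists of this size says little. At an unadjusted limma p under 0.05 the counts were 0 and 2 at E10.5 and 1 and 4 at E11.5. The shares of all tested genes were 16.1% and 18% in these comparisons. Ctnnb1, which encodes beta-catenin, was at 12.85 in medial and 12.92 in lateral tissue at E10.5 and at 12.77 at E11.5. Without a test, 2 of 62 pathway genes were counted at E9.7, both lower in medial tissue (Rspo2 by -1.12 and Nkd2 by -1.05), beside 0.667% of all genes. Of 63, Rspo2 was counted as higher in medial tissue at E10.5 than at E9.7 (2.13), beside 0.647%. In lateral tissue 3 of 62 were higher at E10.5, Fzd1 (1.08), Frzb (1.38) and Tle5 (1.26), beside 0.958%. At E14.5, 12 of 67 were higher than at E11.5, beside 11.1% of all genes. They were led by Fzd9 (2.31), Wnt2 (1.80, from a mean of 3.48 under the filter level) and Dvl1 (1.57). Another 4 were lower, beside 3.67%, led by Rspo2 (-3.26).

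Over the 6 group means, the members most alike were Apcdd1 and Nkd1 (Pearson r = 0.94), Dkk2 and Lef1 (0.91) and Dkk1 and Lef1 (0.90), and those most opposed were Dkk1 and Sfrp2 (-0.77). These values rest on 6 points of unequal replication that share the arrays, and are a description. Among all tested genes, the 3 with group means most like those of Dkk1 were Uchl1 (r = 0.98), Crispld1 (0.96) and Cfap20dc (0.95). For Axin2 they were BC065397, St6gal2 and Fkbp3 (0.99, 0.99 and 0.98), for Lef1 Uhrf1bp1l, Alg6 and Slco3a1 (0.97, 0.96 and 0.94), and for Apcdd1 C2cd2l, Polm and Paqr8 (0.997, 0.993 and 0.992).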

How the data were processed

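RNA from mandibular arch tissue was measured on 11 Affymetrix arrays in 6 groups, assigned from the labels. Per the labels, 3 ug of total RNA was made into biotinylated cRNA. The deposited values are log2 signals that the authors produced with Affymetrix Expression Console 1.1, per the submitters' processing notes; the sources used here do not name the algorithm, and the log base was inferred from the range of the values. Quantile normalization across the 11 arrays was applied to the deposited log2 values, because 2 arrays had far lower medians. The number of arrays limits the precision.

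Probe sets were named from the array annotation, updated to RefSeq names by Entrez ID for 34754 of them; 34958 had 1 symbol, 932 several and 9211 none here. Of several probe sets, the one with the highest mean stood for the gene. The fits used limma 3.58.1 (R 4.3.3; 1 mean per group over 6 groups, 5 residual degrees of freedom), with Benjamini-Hochberg adjustment over 11968 genes, or 24339 probe sets where stated. The script was tested on simulated data. Control-probe groups came from hierarchical clustering of the control signals: group 1 was made of medial replicate 2 of both E10.5 and E11.5, lateral replicate 1 of E10.5 and the pair from E9.7, group 2 of the arrays of low signal, group 3 of medial replicate 3 and lateral replicates 2 and 3 of E10.5, and group 4 of the E14.5 array. The alternatives were other scalings, filters, ways to summarise probe sets, thresholds and variance models, array weights, a replicate block, control-probe group, and leaving out arrays. Values within control-probe groups were added after seeing the data.

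The members, gene lists and motif were chosen with earlier results of these data known. Named were every member, the listed pathway genes that passed a test or the 2-fold rule (at E14.5 those with the largest differences), and the 3 genes most like a member. Pathway genes with no named probe set and promoters outside the table were not analysed here.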

Additional observations from a re-analysis of the deposited data

Results flagged for a closer look

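Apcdd1 differed between medial and lateral tissue in opposite directions at E9.7 and E10.5. At E9.7 the single medial array was above the single lateral array by 0.32 on the log2 scale (8.16 against 7.84). At E10.5 every medial array was below every lateral array, with a mean log2 difference of -0.56. The difference between the stages was not tested, and all 10 members were examined for such a turn.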

How the results depend on the processing

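At E10.5, the count of called members (3) was 0 with the values as deposited (limma, 0 at an unadjusted p under 0.05), 7 with array weights, 5 with control-probe group as a fixed effect and 1 at an adjusted p under 0.01, and it was 1 to 3 when 1 array was left out. Over all genes the count (554) was 2, 2833, 1254 and 300 under these settings and 358 after median centring of the arrays, and 310 to 528 when 1 array was left out. At E11.5, the count of members (6) was 0 with the values as deposited (limma, 2 at an unadjusted p under 0.05), 4 with centring and at an adjusted p under 0.01, 9 with control-probe group (3 higher and 6 lower, with Apcdd1 at adjusted p = 0.0499, Znrf3 at 0.0376 and Wif1 at 0.0186 added) and 5 to 6 when 1 array was left out. Over all genes the count (828) was 1 with the values as deposited, 455 with centring, 482 with only the groups compared, 2182 with control-probe group and 419 at an adjusted p under 0.01, and 517 to 807 when 1 array was left out. The values as deposited moved the median of all genes to -1.03 at E10.5 and -0.66 at E11.5. They turned the sign at E10.5 of Dkk2 (-0.48), Lef1 (-0.68), Znrf3 (-0.68), Fzd7 (-0.11), Lgr4 (-0.25), Notum (-0.033) and Sostdc1 (-0.13), and at E11.5 of Ror1 (-0.061). Nkd1 at E10.5 was 0.058 with centring, 0.19 with control-probe group, 0.15 without the arrays of low signal and -0.23 to 0.15 when 1 array was left out, with 0.15 without medial replicate 1, 0.041 without lateral replicate 2 and 0.040 without lateral replicate 3. By the 2-fold rule, 0 to 1 member was counted in medial tissue from E9.7 to E10.5, 2 to 3 from E11.5 to E14.5 and 2 in lateral tissue when 1 array was left out. Of these shifts the cause was not tested.

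Arrays of medial and lateral E10.5 tissue share replicate numbers. For equal numbers, the correlations of their deviations from the group means were 0.13, -0.29 and 0.48. Medial replicate 2 correlated best with lateral replicate 1 (0.50), an array of the same control-probe group. With 3 arrays per group, these values cannot decide whether arrays of equal number came from the same embryos. The 2 stage pairs, with only 2 arrays at E11.5, had 0.59 and 0.39. The fit with the replicate number as a block also held only the groups compared, so both choices changed together, and it is set against the fit of those groups without the block. At E10.5, 2 members and 611 genes were called with the block and 4 and 605 without it, and at E11.5 it was 7 and 1176 against 5 and 482. At E10.5 Apcdd1 and Sfrp1 were called without the block (Sfrp1 at limma adjusted p = 0.0453) and not with it (Apcdd1 at 0.0536). At E11.5 Sfrp1 (adjusted p = 0.0533 without the block) and Wif1 (1.69, adjusted p = 0.00651) were called with it.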
